A study of Homo sapiens with 6 samples.

Results

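The 40 genes described here encode the machinery that copies DNA and the enzymes that supply it with nucleotides. They were listed by name, with earlier results of these data known, and all 40 were measured, out of 18132 genes on the arrays. A gene was read from its brightest probe set, the Affymetrix set of short probes with the highest mean signal over all arrays. Levels are log2 signal, and every change is AAPK minus DMSO on that scale, so a change of -1 would be a 2-fold lower signal.

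Total RNA was measured on 6 Affymetrix PrimeView arrays, 3 from cells given the compound coded AAPK and 3 from cells given the vehicle DMSO. By the study's title AAPK inhibits Aurora A together with PLK-1, kinases that drive mitosis, and the comparison asks what it does to gene expression. The treatment field reads 10 µM and 48 h for all 6 samples, and 10 µM was read as the amount of AAPK given. All samples are labelled HCT-116, an established human colorectal carcinoma line, and carry a remark that the cells express Aurora-A and PLK-1 highly. The labels do not say whether the 3 samples of a group were separate cultures, so the p-values reflect only how much these arrays varied, possibly for technical reasons. Nothing records how many cells were in S phase, and in bulk RNA fewer cells in that phase and less transcript per cell cannot be told apart.

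The arrays were alike in overall signal, with medians of 6.46 to 6.47 for AAPK and 6.48 to 6.50 for DMSO, and the median change over all genes was -0.02. The label was set against 9 markers of colon epithelium. KRT8 and KRT18, keratins of simple epithelia, were bright, at 12.01 and 12.52 in AAPK and 11.84 and 12.44 in DMSO. EPCAM and VIL1, an epithelial adhesion molecule and an intestinal actin-binding protein, averaged 3.39 and 4.02 in AAPK and 3.45 and 4.15 in DMSO, near the lowest value in the table, 2.83. E-cadherin (CDH1) and KRT19 were also dim, at 5.11 and 5.02 in AAPK and 5.11 and 4.97 in DMSO, while VIM, a mesenchymal filament protein chosen after its values were seen, stood at 12.54 in AAPK and 12.51 in DMSO. Of the remaining markers CDX2, CEACAM5 and LGR5 had 5.83, 5.78 and 7.11 in AAPK and 5.86, 5.78 and 7.14 in DMSO. EPCAM and E-cadherin, which HCT-116 cells are known to make, were thus low on all 6 arrays alike, and the cells are called here by their label only. None of the 9 markers fell in AAPK, and KRT8 was the single one that rose, by 0.17 (limma adjusted p = 0.0402). Among 6 fibroblast, 4 endothelial and 5 measured blood markers none passed. The 6 fibroblast markers were far dimmer than VIM. They ran from 3.29 for LUM to 6.97 for COL1A1 in AAPK, and from 3.20 to 7.04 for the same genes in DMSO.

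Replication starts at origins, where the origin recognition complex and CDC6, with CDT1, load the ring-shaped MCM helicase during G1. In S phase CDC45 and the GINS complex join the MCM ring to make the working helicase, primase and DNA polymerase alpha lay down primers, the clamp loader RFC places the sliding clamp PCNA, and polymerases delta and epsilon extend. Most of these genes are transcribed in a wave before and during S phase under E2F transcription factors, and in proliferating tumour cells they are commonly read as a proliferation signature.

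Of the 40 genes, 14 fell in AAPK, 0 rose and 26 did not pass (limma, adjusted p 0.05 over all 18132 genes). The 14 make 35.0% of the genes, where 7.26% of all genes fell and 8.11% rose. Since 38 of the 40 were brighter than the median gene, the share among genes over the median signal, 10.3%, is the closer comparison. The choice of genes was not blind to these data, so the share describes the 40 and does not stand for the pathway: of 82 other replication and nucleotide genes, 12.2% fell. The falls were small. The median change of the 40 was -0.11, only PRIM1 reached 1.5-fold, and 6 reached 1.2-fold. With no adjustment, 20 had p under 0.05 downward and 0 upward. The share of all genes at that cut-off, or at 1.2-fold, was not counted, so these counts describe the 40 genes only. All 3 AAPK arrays lay below all 3 DMSO arrays for 25 of the 40 genes and above them for 3, against 17.1% and 14.9% of all genes. Of the 9066 genes over the median signal, 1934 lay below and 2214 above in this way. The count of 14 rests in part on small changes close to the threshold. It was 7 (17.5%) without AAPK replicate 1 or without DMSO replicate 1, and 9 (22.5%) without DMSO replicate 3. In these 3 fits 4.91%, 5.06% and 5.65% of all genes fell, in the same order.

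**Figure D1:**
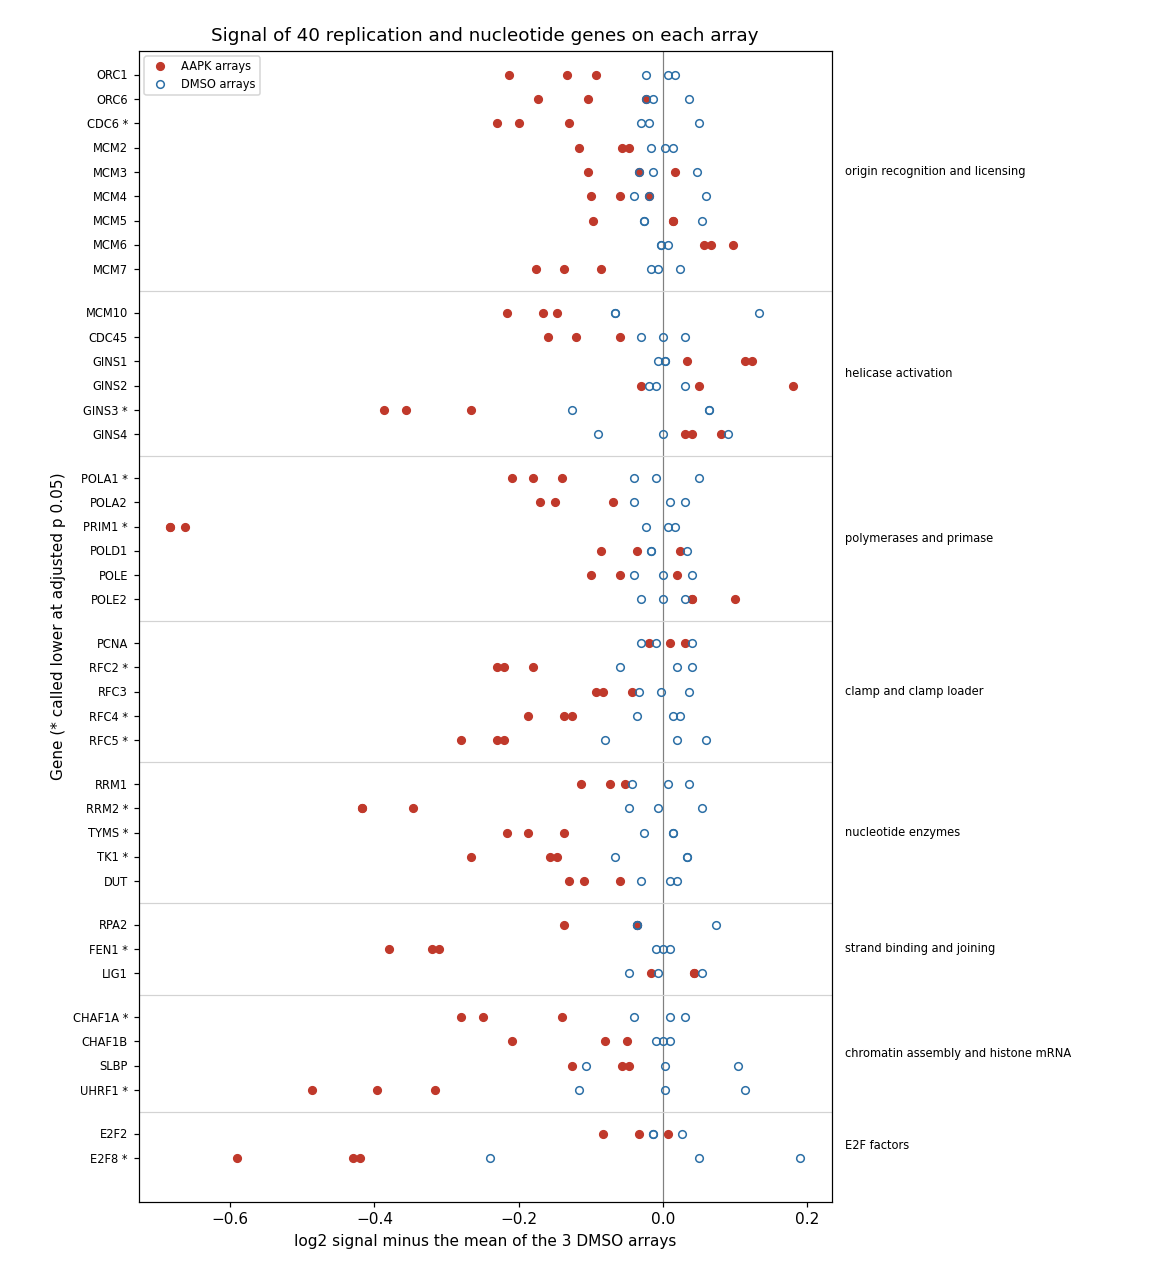
Each row is 1 of the 40 genes, grouped by role, and each point is 1 array, placed by its log2 signal minus the mean of the 3 DMSO arrays for that gene (filled, AAPK; open, DMSO). PRIM1 stands furthest left with tight groups, 7 genes lie on average to the right of 0, and the MCM genes from MCM2 to MCM5 lie close to 0.

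Stretches of 5 promoters, taken from RefSeq (GRCh38.p14), come before the values. They are shown because they hold the elements through which S-phase genes are usually regulated, and because they set 3 genes that fell, PRIM1, UHRF1 and RRM2, beside PCNA and MCM6, which did not pass. Each is the 150 bases just before the transcription start in the first window listed for the gene. The stretches are PRIM1 at chr12:56752324-56752473 on the minus strand, UHRF1 at chr19:4909351-4909500 on the plus strand, RRM2 at chr2:10122589-10122738 on the plus strand, PCNA at chr20:5126623-5126772 on the minus strand and MCM6 at chr2:135876444-135876593 on the minus strand. Capitals mark an E2F word of 7 letters (TTNNCGC, where each N is C or G) or the CCAAT box, the site of the factor NF-Y, each on either strand.
PRIM1: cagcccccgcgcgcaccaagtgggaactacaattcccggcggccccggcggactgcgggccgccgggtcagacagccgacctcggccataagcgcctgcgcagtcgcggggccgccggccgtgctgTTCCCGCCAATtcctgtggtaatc
UHRF1: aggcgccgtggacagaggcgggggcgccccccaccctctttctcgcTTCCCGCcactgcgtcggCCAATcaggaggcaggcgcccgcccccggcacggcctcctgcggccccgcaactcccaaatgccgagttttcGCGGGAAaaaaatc
RRM2: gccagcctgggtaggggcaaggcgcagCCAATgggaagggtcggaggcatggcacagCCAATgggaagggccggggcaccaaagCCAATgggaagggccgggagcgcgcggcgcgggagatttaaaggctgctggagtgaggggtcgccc
PCNA: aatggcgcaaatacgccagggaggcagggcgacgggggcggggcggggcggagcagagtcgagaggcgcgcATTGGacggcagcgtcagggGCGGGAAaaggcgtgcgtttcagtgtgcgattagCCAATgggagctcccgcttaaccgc
MCM6: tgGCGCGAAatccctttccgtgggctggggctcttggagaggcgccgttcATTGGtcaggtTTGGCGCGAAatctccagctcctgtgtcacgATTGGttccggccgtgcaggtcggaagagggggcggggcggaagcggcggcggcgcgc
In PRIM1 the E2F word and the CCAAT box share a base. MCM6 has 3 E2F words in this stretch, of which 2 overlap, UHRF1 has 2, PRIM1 and PCNA 1 each, and RRM2 has 3 CCAAT boxes and no E2F word here. A second RefSeq start of RRM2, further upstream, has 1 E2F word of 7 letters in its own window.

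Promoter windows were found for 35 of the 40 genes, with MCM4, MCM5, GINS4, RPA2 and E2F8 named only; 8 genes have several windows, and a gene was counted where any of them held the word, as RRM2 was for the shorter words below. Within the 250 bases before a start, 14 of the 35 (40%) held an E2F word of 8 letters (TTTNNCGC, where each N is C or G, either strand), against 4.69% of the 14425 measured genes with a window and 3.51% of their 20403 windows. The shorter words, which lie inside the longer ones, were in 21 of 35 (60.0%), against 18.0% of genes and 13.8% of windows. CCAAT was in 57.1% of the 35, against 40.5% of genes and 32.8% of windows. TTTGAA, the core of the CHR element of late cell cycle genes, was in 5.71%, against 14.2% of genes and 11% of windows. Among the genes with an 8-letter E2F word, 3 of 14 fell, with a median change of -0.06; among those without, 10 of 21 fell, with a median of -0.15. With the 7-letter words the split was 8 of 21 and 5 of 14, with medians of -0.13 and -0.11. These counts are small, and no test of the difference was made. FEN1, GINS3 and RFC2, which fell, held none of the E2F, CCAAT or TTTGAA words. MCM2, POLD1, POLE2, CHAF1B and SLBP, which did not pass, held none either. A match describes letters in a window and is not a measured binding site.

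Of 9 origin recognition and licensing genes, CDC6 fell and the other 8 did not pass, and the group's median was -0.07. CDC6, the ATPase that loads the MCM ring, had 9.88, 9.98 and 9.91 on the AAPK arrays, against 10.08, 10.09 and 10.16 on the DMSO arrays (change -0.19 ± 0.05 SE, adjusted p = 0.0213). The groups do not overlap, but the gene's other probe set was at 0.04 and did not pass, and with the mean of both the call was lost (-0.07, adjusted p = 0.247). It was lost under 6 of the 15 alternatives in all, among them leaving out AAPK replicate 1 or 3 or DMSO replicate 1 or 3. ORC1, the ATPase subunit of the origin recognition complex, had 7.92, 8.04 and 8.0 in AAPK, against 8.14, 8.15 and 8.11 in DMSO. Its groups were also apart, with a change of -0.14 that did not pass (adjusted p = 0.073). ORC6, the smallest subunit of the complex, was at -0.10 (adjusted p = 0.233).

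The 6 subunits of the MCM ring stayed within narrow bounds. MCM7 was lowest, with 11.33, 11.38 and 11.29 in AAPK, against 11.45, 11.49 and 11.46 in DMSO, a change of -0.13 (95% interval -0.23 to -0.03, adjusted p = 0.0851). Its 3 other probe sets were at -0.16 to -0.10. MCM2, MCM3, MCM4 and MCM5 had changes of -0.07, -0.04, -0.06 and -0.02, and the widest of their 95% intervals reached -0.17, so falls of 1.2-fold or more lay outside these intervals. MCM6 had 9.42, 9.38 and 9.39 in AAPK, against 9.32, 9.33 and 9.32 in DMSO. Every AAPK array was above every DMSO array on that probe set, but the change of 0.07 did not pass (adjusted p = 0.322). Its dimmest probe set had -0.28 and passed when all probe sets were fitted together (adjusted p = 0.00982), and the mean of its probe sets was at -0.05, so MCM6 has no single direction here.

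The factors that turn the loaded ring into a moving helicase split. GINS3, a subunit of the 4-part GINS complex, had 6.25, 6.28 and 6.37 in AAPK, against 6.70, 6.51 and 6.70 in DMSO, and fell by 0.34 (SE 0.06, adjusted p = 0.00372). Its partners GINS1, GINS2 and GINS4 were at 0.09, 0.07 and 0.05, and none passed. GINS1 had 9.03, 8.95 and 9.04 in AAPK, against 8.92, 8.91 and 8.92 in DMSO, groups that do not overlap. GINS3 was read from 1 probe set, and the probe sets of GINS1 and GINS4 were all above 0. CDC45, which joins GINS on the helicase, had 7.85, 7.95 and 7.89 in AAPK, against 8.04, 8.01 and 7.98 in DMSO, a change of -0.11 that did not pass (adjusted p = 0.148). Its other probe sets were at -0.31 and -0.37, and both passed when all probe sets were fitted together (adjusted p = 0.00203 and 0.00369). The brightest probe set thus gave the smallest change of this gene, and with the mean of its probe sets CDC45 was at -0.26 and passed (adjusted p = 0.00116). MCM10, which helps activate the helicase, was at -0.18 with groups apart and did not pass (adjusted p = 0.0817).

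Among the polymerase genes PRIM1 stood out. PRIM1, the catalytic subunit of primase, had 8.58, 8.58 and 8.60 on the AAPK arrays, against 9.28, 9.27 and 9.24 on the DMSO arrays. The gap was many times the spread within either group, and the gene was 1.60-fold lower in AAPK (change -0.68 ± 0.04 SE, adjusted p = 5.00e-06), a call kept under all 15 alternatives. PRIM1 was read from 1 probe set. PRIM2, its regulatory partner, from the list of other polymerase and clamp genes, was at 0.04 (adjusted p = 0.645). POLA1, the catalytic subunit of polymerase alpha, had 9.34, 9.41 and 9.37 in AAPK, against 9.60, 9.51 and 9.54 in DMSO, and fell by 0.17 (adjusted p = 0.0297). That call was lost under 6 of the 15 alternatives: with median centring (adjusted p = 0.0545), with a replicate block, and without AAPK replicate 1 or 3 or DMSO replicate 1 or 3, with an adjusted p of up to 0.129. POLA2, its accessory subunit, missed the threshold with -0.13 (adjusted p = 0.102). The catalytic subunits of the extending polymerases did not pass: POLD1 was at -0.03 (95% interval -0.14 to 0.07) and POLE at -0.05 (-0.16 to 0.06). POLE2, the second subunit of polymerase epsilon, had 7.87, 7.87 and 7.93 in AAPK, against 7.83, 7.80 and 7.86 in DMSO, just apart, with a change of 0.06 (adjusted p = 0.448).

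Of the clamp and the 4 measured loader subunits on the list, 3 subunits of the loader fell. PCNA, the sliding clamp, had 11.06, 11.03 and 11.08 in AAPK, against 11.04, 11.02 and 11.09 in DMSO. These groups overlap fully, with a change of 0.00 (95% interval -0.09 to 0.10), although with quantile normalisation it was at -0.06 and its far dimmer probe set had -0.32 (adjusted p = 0.0461 with all probe sets fitted). With the mean of its probe sets PCNA was at -0.16 (adjusted p = 0.0542), no smaller a change than that of RFC5 on the same setting. No test of a difference between PCNA and the loader was made. RFC5, a small subunit of the loader, had 9.07, 9.12 and 9.13 in AAPK, against 9.37, 9.27 and 9.41 in DMSO, and fell by 0.25 (SE 0.05, adjusted p = 0.00729). All 3 other RFC5 probe sets were lower as well, at -0.10 to -0.09, and with the mean of its probe sets the call was just lost (-0.13, adjusted p = 0.0526). RFC2 had 9.07, 9.12 and 9.08 in AAPK, against 9.34, 9.24 and 9.32 in DMSO, and fell by 0.21 (adjusted p = 0.0125), a call lost without AAPK replicate 1 or DMSO replicate 1 (adjusted p = 0.0537 and 0.0613). RFC4 had 9.76, 9.82 and 9.81 in AAPK, against 9.97, 9.91 and 9.96 in DMSO, a fall of 0.15 at the edge of the threshold (adjusted p = 0.0498). That call on RFC4 was lost under 10 of the 15 alternatives, leaving out any 1 of the 6 arrays among them. RFC3 had -0.07 and missed the threshold (adjusted p = 0.37). RFC1, also a subunit of the loader but from the list of other polymerase and clamp genes, fell by 0.16 (adjusted p = 0.036).

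All 5 nucleotide enzymes were below 0, with no overlap between the groups for any, where 17.1% of all genes were lower without overlap. Of the 5 enzymes, 3 fell. RRM2, the small subunit of ribonucleotide reductase, whose level rises and falls with the cell cycle, had 9.53, 9.53 and 9.60 in AAPK, against 9.94, 9.90 and 10.00 in DMSO. It was 1.31-fold lower (change -0.39 ± 0.05 SE, adjusted p = 3.68e-04). The other RRM2 probe set disagreed, at -0.01 (adjusted p = 0.967 with all probe sets fitted), and the mean of both stood at -0.20. RRM1, the large subunit, was at -0.08 (adjusted p = 0.294). TYMS, thymidylate synthase, had 11.03, 11.06 and 11.11 in AAPK, against 11.26, 11.22 and 11.26 in DMSO, and fell by 0.18 (adjusted p = 0.0221). TK1, the thymidine kinase of the salvage route, had 9.55, 9.54 and 9.43 in AAPK, against 9.73, 9.63 and 9.73 in DMSO, and fell by 0.19 on both of its probe sets (adjusted p = 0.0316). The calls on TYMS and TK1 were lost under 5 and 7 of the alternatives, both of them without AAPK replicate 1 or 2 or DMSO replicate 1 or 3, and TK1 also without AAPK replicate 3. DUT, which removes dUTP, was at -0.10 (adjusted p = 0.18), and its dimmest probe set had -0.31 and passed when all were fitted (adjusted p = 0.00256).

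Among genes that bind and join strands FEN1 fell and the others did not pass. FEN1, the nuclease that trims Okazaki fragments, had 10.68, 10.69 and 10.62 in AAPK, against 11.01, 10.99 and 11.00 in DMSO (change -0.34 ± 0.04 SE, adjusted p = 5.52e-04). Its 3 probe sets agreed closely, at -0.37 to -0.34, and all alternatives kept the call. LIG1, the ligase that seals the fragments after FEN1, had 8.65, 8.71 and 8.71 in AAPK, against 8.62, 8.66 and 8.72 in DMSO, with full overlap. Its 6 probe sets ran from -0.12 to 0.07 and none passed. RPA2, a subunit of the single-strand binding protein, was at -0.07 (adjusted p = 0.458). Its 2 other probe sets were at 0.01 and 0.03, and the mean of its probe sets was at -0.01. RPA1 and RPA3, its partners on the list of other polymerase and clamp genes, were at 0.04 and 0.18. Of these partners RPA3 passed (adjusted p = 0.0201) and RPA1 did not (adjusted p = 0.58).

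In the group for chromatin behind the fork, UHRF1 and CHAF1A fell. UHRF1, which brings the maintenance methyltransferase to newly copied DNA, had 8.90, 8.98 and 8.81 in AAPK, against 9.30, 9.18 and 9.41 in DMSO. It was 1.32-fold lower (change -0.40 ± 0.07 SE, adjusted p = 0.00236), with -0.18 and 0.08 on 2 dimmer probe sets that did not pass, and -0.16 for the mean of all 3 (adjusted p = 0.0353). CHAF1A, the large subunit of the chromatin assembly factor, had 8.57, 8.71 and 8.60 in AAPK, against 8.86, 8.88 and 8.81 in DMSO, and fell by 0.23 (adjusted p = 0.013), a call lost without AAPK replicate 1 or DMSO replicate 1. Its partner CHAF1B was at -0.11 (adjusted p = 0.196). SLBP, which binds the stem-loop of histone mRNA, had 9.52, 9.60 and 9.59 in AAPK, against 9.65, 9.54 and 9.75 in DMSO, groups that overlap.

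Of the E2F factors, E2F8 fell. E2F8, a repressor of the family, had 6.03, 6.20 and 6.19 in AAPK, against 6.38, 6.67 and 6.81 in DMSO, and was 1.40-fold lower (change -0.48 ± 0.10 SE, adjusted p = 0.00669). The DMSO arrays were spread more widely than the AAPK arrays, and the other probe sets were at -0.33 and -0.19. E2F2, an activator, had 8.44, 8.39 and 8.48 in AAPK, against 8.46, 8.50 and 8.46 in DMSO, and did not pass (adjusted p = 0.674).

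**Figure D2:**
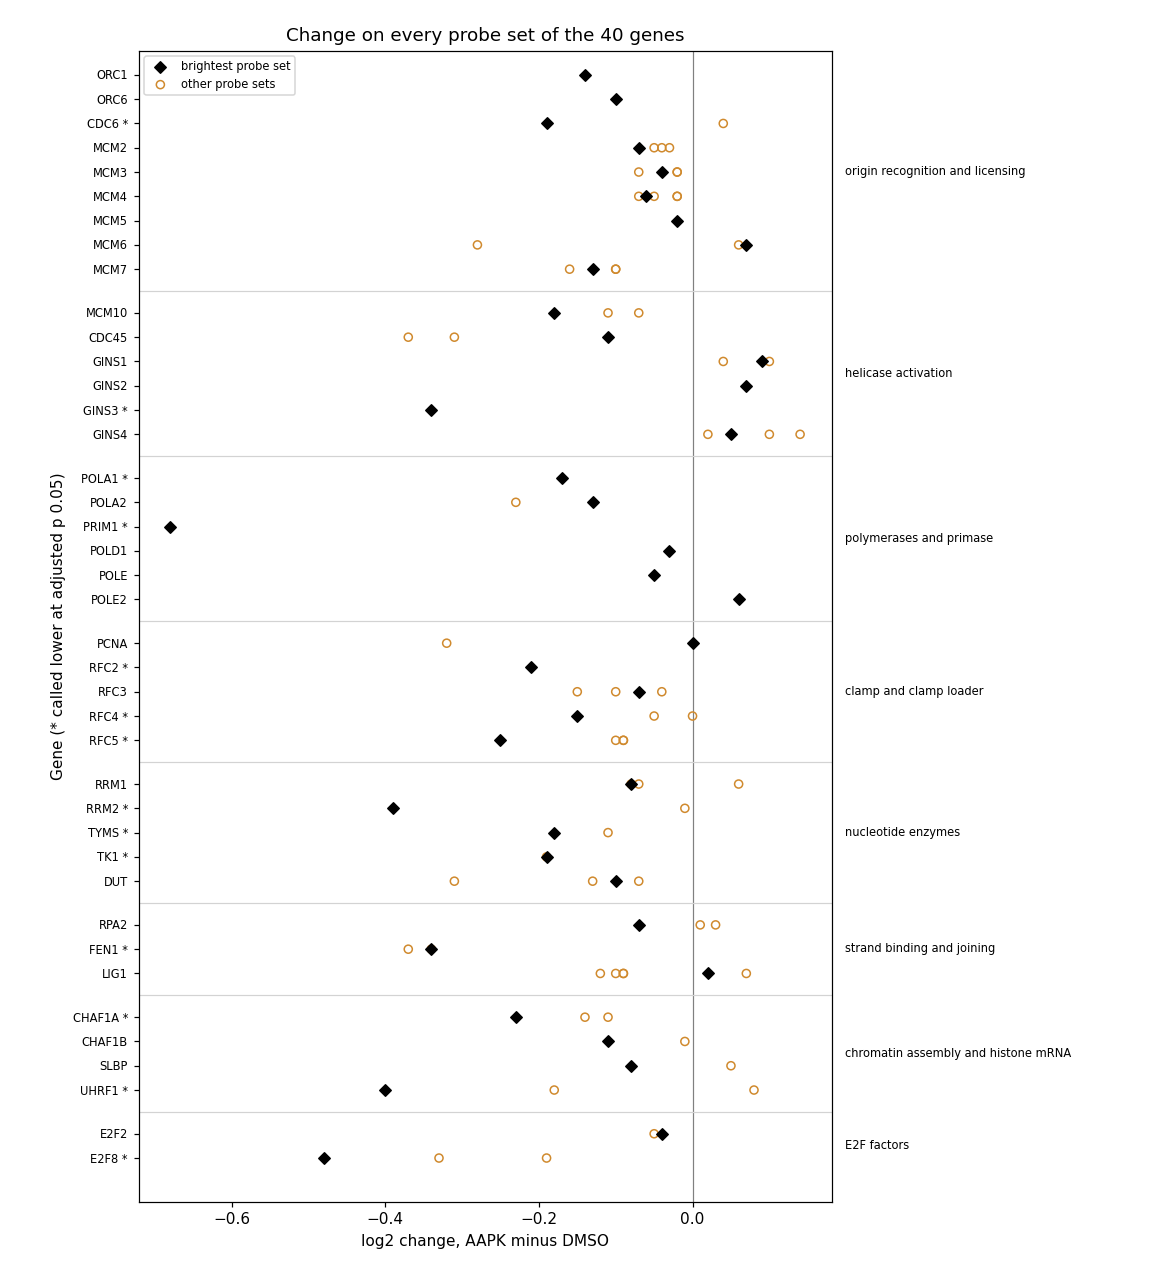
Each row is a gene and each symbol the log2 change (AAPK minus DMSO) on 1 of its probe sets, with the brightest as a diamond and the others as circles. FEN1 and TK1 agree across probe sets, while CDC6, RRM2, UHRF1, PCNA, MCM6 and CDC45 differ between theirs.

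The 40 genes have 102 probe sets, and 11 genes have 1 each. Of the 62 that are not the brightest of their gene, 48 were below 0, 9 passed downward and 0 upward when all probe sets were fitted together. The shares over all such probe sets were not counted. On the brightest probe set, 10399 of all 18132 genes were below 0. The 62 are further readings of 29 of the same genes, so they are not independent support. Of the 10 genes that fell and have more than 1 probe set, 7 had the same sign on all of them.

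Across roles, the share that fell was 3 of 5 for the clamp and its loader and 3 of 5 for nucleotide enzymes, 2 of 4 for the chromatin group, 1 of 2 for E2F factors, 2 of 6 for polymerases and primase, 1 of 3 for strand binding and joining, 1 of 6 for helicase activation and 1 of 9 for licensing. Among genes over the median signal 10.3% fell, and the licensing share, 11.1%, is near that. CDT1, which also loads the MCM ring, is on another list and is not in the licensing count. The role medians ran from -0.26 for the E2F factors and -0.18 for nucleotide enzymes to -0.03 for helicase activation. The median of the 40 genes, each taken relative to its DMSO mean, was -0.115, -0.090 and -0.118 on the AAPK arrays, against 0.000, -0.020 and 0.013 on the DMSO arrays. Nucleotide enzymes gave -0.147, -0.157 and -0.137 in AAPK, against 0.013, -0.030 and 0.020 in DMSO. Helicase activation genes gave -0.060, -0.013 and -0.075 in AAPK, against 0.017, -0.043 and 0.033 in DMSO, so the median of this group overlapped between AAPK and DMSO while that of the nucleotide enzymes did not. The role groups are small, and differences between them were not tested.

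**Figure D3:**
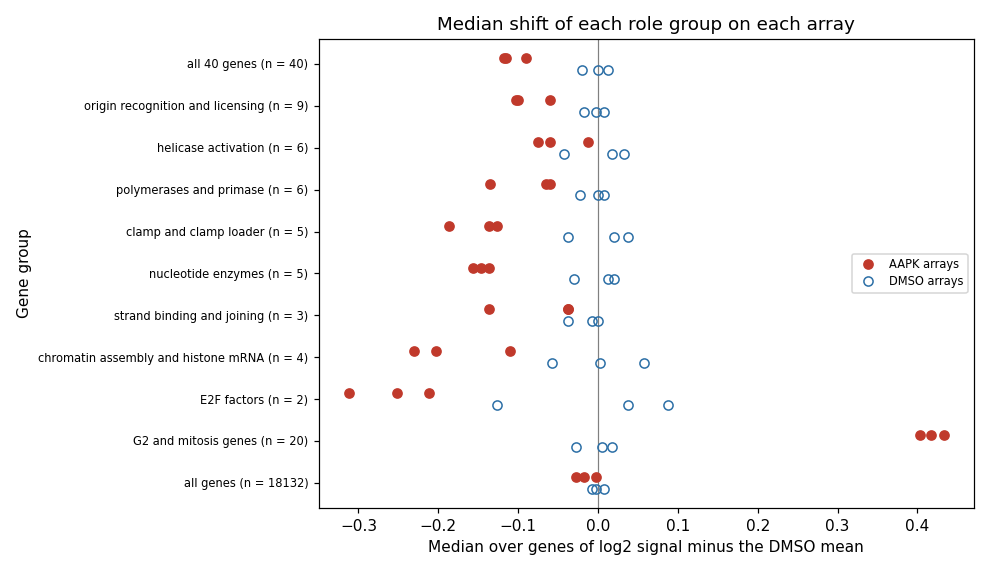
Each point is 1 array, placed by the median over the genes of a group of log2 signal minus the DMSO mean (filled, AAPK; open, DMSO). The 40 replication genes shifted by about -0.1 on all 3 AAPK arrays, the 20 G2 and mitosis genes by 0.403 to 0.433, and all 18132 genes by less than 0.03.

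Genes that act in one complex or at neighbouring steps could be set against each other on the same array, where a shift shared by both genes cancels. The 7 pairs were chosen after the changes were seen, so no test is given. Probe sets differ in brightness, so only the change in the difference can be read. PRIM1 minus PRIM2 was 0.97, 0.99 and 1.01 in AAPK, against 1.69, 1.72 and 1.70 in DMSO, a change of -0.71. GINS3 minus the mean of the other GINS genes changed by -0.41, FEN1 minus LIG1 by -0.36 and RRM2 minus RRM1 by -0.31. PRIM1 minus the mean of POLA1 and POLA2 changed by -0.52, RFC5 minus PCNA by -0.25 and CDC6 minus the mean of the 6 MCM ring genes by -0.15. The AAPK arrays were below the DMSO arrays in each of the 7, a separation that the choice of pairs fixes and from which nothing is read.

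**Figure D4:**
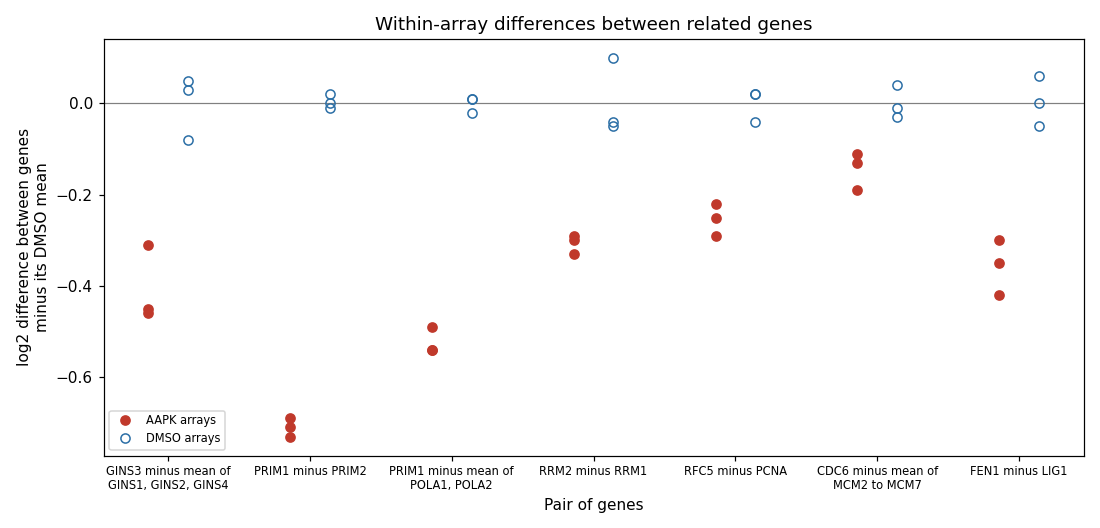
Each point is 1 array, and the vertical axis is the log2 difference between a gene and the gene or genes set against it, minus the DMSO mean of that difference (filled, AAPK; open, DMSO). The PRIM1 and PRIM2 pair shows the widest separation and CDC6 with the MCM ring the narrowest.

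The rest of the pathway was read from 6 lists of other replication and nucleotide genes, of which 82 of 86 were measured. Of the 82, 10 fell (12.2%) and 12 rose (14.6%), with a median of 0.00. These shares are near those among all genes over the median signal, where 10.3% fell and 14.5% rose, so the genes named next are values and not a result about the lists. Among 20 other origin and fork genes 3 fell and 0 rose: CDT1, the MCM loading factor, by 0.58 (adjusted p = 3.21e-04), CLSPN, a fork checkpoint mediator, by 0.26 and CDC7, the kinase that fires origins, by 0.22. CDT1 had 8.28, 8.27 and 8.01 in AAPK, against 8.76, 8.77 and 8.78 in DMSO. ORC2, ORC3, ORC4 and ORC5 were all between 0.00 and 0.06 and did not pass.

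Among 18 other polymerase and clamp genes 3 fell and 2 rose. TOP1, the topoisomerase that relaxes DNA ahead of the fork, rose by 0.39 (9.30, 9.33 and 9.38 in AAPK, against 8.91, 8.90 and 9.02 in DMSO, adjusted p = 5.20e-04). POLD3, an accessory subunit of polymerase delta, fell by 0.34 and CHTF8, of the alternative clamp loader, by 0.24. Other deoxynucleotide genes gave 1 lower and 3 higher of 10, with DCTPP1, a dCTP pyrophosphatase, at 0.22, CMPK1, a nucleoside monophosphate kinase, at 0.19 and SHMT1, a folate enzyme, at -0.18.

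Of 18 enzymes that make or salvage purines and pyrimidines, 5 rose (27.8%) and 1 fell (5.56%). Among genes over the median signal 14.5% rose and 10.3% fell, and among all genes 8.11% rose and 7.26% fell. PPAT, the first committed enzyme of purine synthesis, had 8.11, 8.11 and 8.04 in AAPK, against 7.70, 7.72 and 7.73 in DMSO, and rose by 0.37 (adjusted p = 3.50e-04). IMPDH1, of guanine nucleotide synthesis, rose by 0.24, and UMPS, of pyrimidine synthesis, fell by 0.23. No test of the difference between this list and the 40 genes was made. Among 8 other chromatin assembly genes HAT1, a histone acetyltransferase, rose by 0.31 and DNMT1, the maintenance methyltransferase that UHRF1 recruits, fell by 0.19. Among 8 other E2F family genes E2F7, the repressor closest to E2F8, fell by 0.40 (1.32-fold lower, adjusted p = 4.75e-04), E2F3, an activator, rose by 0.17, and E2F1 was at -0.03 (adjusted p = 0.773).

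Markers of another cell cycle phase were read as well, from a list chosen with earlier results of these data known. Of 20 G2 and mitosis genes 18 rose and 0 fell, where 14.5% of genes over the median signal and 8.11% of all genes rose. The median change of the 20 was 0.38. Their mean log2 signal was 9.51 to 9.52 on the AAPK arrays and 9.03 to 9.09 on the DMSO arrays, and every one of the 20 was above 0, from 0.05 for AURKB to 0.88 for CDC20. Whether this shift has a part in the fall of the replication genes was not tested. Some control probe sets for ribosomal RNA moved as well. The middle and 5′ sets of the large subunit were 0.51 and 0.56 higher in AAPK (limma adjusted p = 0.00947 and 0.0265 over 102 control probe sets). The set for the 3′ end of the small subunit had -0.41 (limma adjusted p = 0.0498). The 3′ set of the large subunit, at -0.13, and the 5′ and middle sets of the small subunit, both at -0.06, did not pass. The part of these control sets in the result was not tested.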

How the data were processed

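The deposited table holds log2 signal for 49395 probe sets on 6 arrays. The scale is not stated and was read from the values, 2.83 to 14.25. Quartiles were nearly equal between the deposited arrays, but how background was corrected, arrays normalised and probes summarised was not stated in the labels. Normalising between arrays would remove a change shared by most genes. Symbols came from the platform's gene table, and 44988 probe sets named 1 gene; those naming several or none, and 102 controls, were left out of the gene fit. Each of the 18132 genes was read from its brightest probe set and tested in limma (version 3.58.1, under R 4.3.3) by a two-sided moderated test on group, with Benjamini-Hochberg adjustment over all genes and a threshold of 0.05. The fit was tested on simulated data. Precision is limited by 3 arrays per group. The genes, their role groups and all other lists were chosen with earlier results of these data known. All 40 genes could be named, with values on each array for those that passed and for the largest and smallest change of each role. From each other list of pathway genes up to 3 with the largest change that passed could be named. PRIM2, RFC1, RPA1, RPA3, ORC2 to ORC5, E2F1 and VIM fall outside this rule and were chosen after their values were seen. Promoter windows came from RefSeq and were matched by symbol. The alternatives changed the normalisation (quantile, median centring), dropped dim genes at either of 2 levels, averaged probe sets or fitted them all, added an intensity trend, array weights or a replicate block, or left out 1 array.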

Additional observations from a re-analysis of the deposited data

Results flagged for a closer look

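Of 102 control probe sets outside the gene comparison, 3 passed, 2 of them higher in AAPK than in DMSO. The probe set for the middle part of the large-subunit ribosomal RNA averaged 10.43 ± 0.03 in AAPK and 9.91 ± 0.08 in DMSO (SD, n = 3 arrays each), a difference of 0.51 (limma adjusted p = 0.00947 over 102 control probe sets). The probe set for its 5′ part averaged 10.26 ± 0.07 in AAPK and 9.70 ± 0.12 in DMSO, a difference of 0.56 (limma adjusted p = 0.0265). Its 3′ control set averaged 7.49 ± 0.10 in AAPK and 7.62 ± 0.08 in DMSO, a difference of -0.13 that did not pass (limma adjusted p = 0.967). For the small subunit, the 3′ control set was lower, with 11.65 ± 0.10 in AAPK and 12.06 ± 0.09 in DMSO, a difference of -0.41 (limma adjusted p = 0.0498). The 5′ and middle control sets of the small subunit both differed by -0.06 and did not pass (limma adjusted p = 0.967 for each).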

How the results depend on the processing

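There were 15 alternatives. Of the 14 genes that fell, 6 passed under every one that fitted them (PRIM1, RRM2, FEN1, UHRF1, GINS3 and E2F8), the last 2 being too dim for the filter at the median signal, and 8 lost the threshold under at least 1; none changed sign. Of the 26 that did not pass, 6 passed under at least 1 alternative: ORC1 under 6, MCM7 and DUT under 3 each, POLA2 under 2, and MCM10 and CDC45 under 1 each. No gene of the 40 rose under any. The count of those that fell was 7 to 13 when 1 array was left out, and 9 with a replicate block. Elsewhere it was 11 with median centring to 17 with quantile normalisation or an intensity trend. The share of all genes that fell also varied. It was 4.91% to 6.3% with 1 array left out and 5.42% with a replicate block. With median centring it was 5.92%, with quantile normalisation 7.73% and with an intensity trend 8.11%. Replicate numbers did not pair the arrays (correlations of deviations 0.03, -0.20 and -0.03), so the block is a check only. The median of the 40 genes was -0.15 with quantile normalisation, -0.09 with median centring and -0.12 to -0.09 with 1 array left out. Other pathway genes that passed numbered 11 to 19 with 1 array left out, 6 to 9 lower and 5 to 12 higher, and 7 rose with quantile normalisation. Genes near 0 changed sign. PCNA was at -0.06 with quantile normalisation, -0.16 with the mean of probe sets and -0.01 to 0.02 with 1 array left out; LIG1, in the same order, at -0.01, -0.05 and 0.00 to 0.05; MCM6 at -0.05 with the mean of probe sets; and MCM5 at 0.00 with array weights and -0.04 to 0.01 with 1 array left out. The cause of these shifts was not tested. Background correction could not be varied, and the smallest change among the 14 that passed was -0.15.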
